A study of Mus musculus with 27 samples.

Results

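The small leucine-rich proteoglycans are secreted proteins of the extracellular matrix, and 10 of their genes were followed here through osteoblast differentiation of mouse calvarial cells: Dcn, Bgn, Lum, Fmod, Ogn, Omd, Aspn, Prelp, Kera and Ecm2. They were chosen by name as a gene family, with earlier results of these data known. All 10 were found among the 37991 genes of the files. The cells came from the skull bones of neonatal mice of the strain C57BL/6J-Col3.6 CFP, 5 to 9 days old, in which a fragment of the type I collagen promoter drives cyan fluorescent protein. After 4 days in culture the CFP-positive cells were sorted by fluorescence and returned to culture with ascorbic acid, beta-glycerol phosphate and fetal bovine serum, which were present at every time point. RNA was taken every other day from day 2 to day 18, giving 9 days with 3 profiles each, 27 in all. The 3 profiles of a day carry 1 barcode and differ in sequencing lane, so each day is 1 library and no day has a biological replicate.

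A proteoglycan of this family has a core of leucine-rich repeats, which folds into a curved solenoid and binds fibrillar collagen, and most members carry sulfated sugar chains. Biglycan and decorin carry chondroitin or dermatan sulfate, whereas lumican, fibromodulin and keratocan belong to the keratan sulfate class. In bone, tendon, skin and cornea the family sets the diameter and spacing of collagen fibrils, and several members also bind growth factors such as TGF-beta.

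Levels are given as TPM (transcript abundance corrected for gene length and scaled to a total of 1000000), brought to a common upper quartile and averaged over the 3 profiles of a day. The total per day ranged from 22470195 to 62009157 estimated counts, with a median of 43146793. The 9 libraries were fitted once with a straight line in day and once by period, where early is days 2, 4 and 6, middle is days 8, 10 and 12, and late is days 14, 16 and 18. A gene was called at a Benjamini-Hochberg adjusted p under 0.05 over 15659 genes tested with edgeR's quasi-likelihood test. All 10 family genes passed the filter on low counts.

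All 10 genes rose along the line from day 2 to day 18. Over all genes tested, 28.3% rose and 26.1% fell by the same rule. As the genes were chosen with earlier results of these data known, this comparison describes the family and does not test it. The fitted log2 change of the 10 genes had a median of 4.66 and ran from 0.80 for Bgn to 6.91 for Kera, against a median of 0.05 over all genes. Added together, they made up 2415 TPM at day 2, 4895 at day 8, 9889 at day 12 and 11581 at day 18. In these cultures a change in the number of cells of a type and a change in RNA per cell cannot be told apart.

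**Figure D1:**
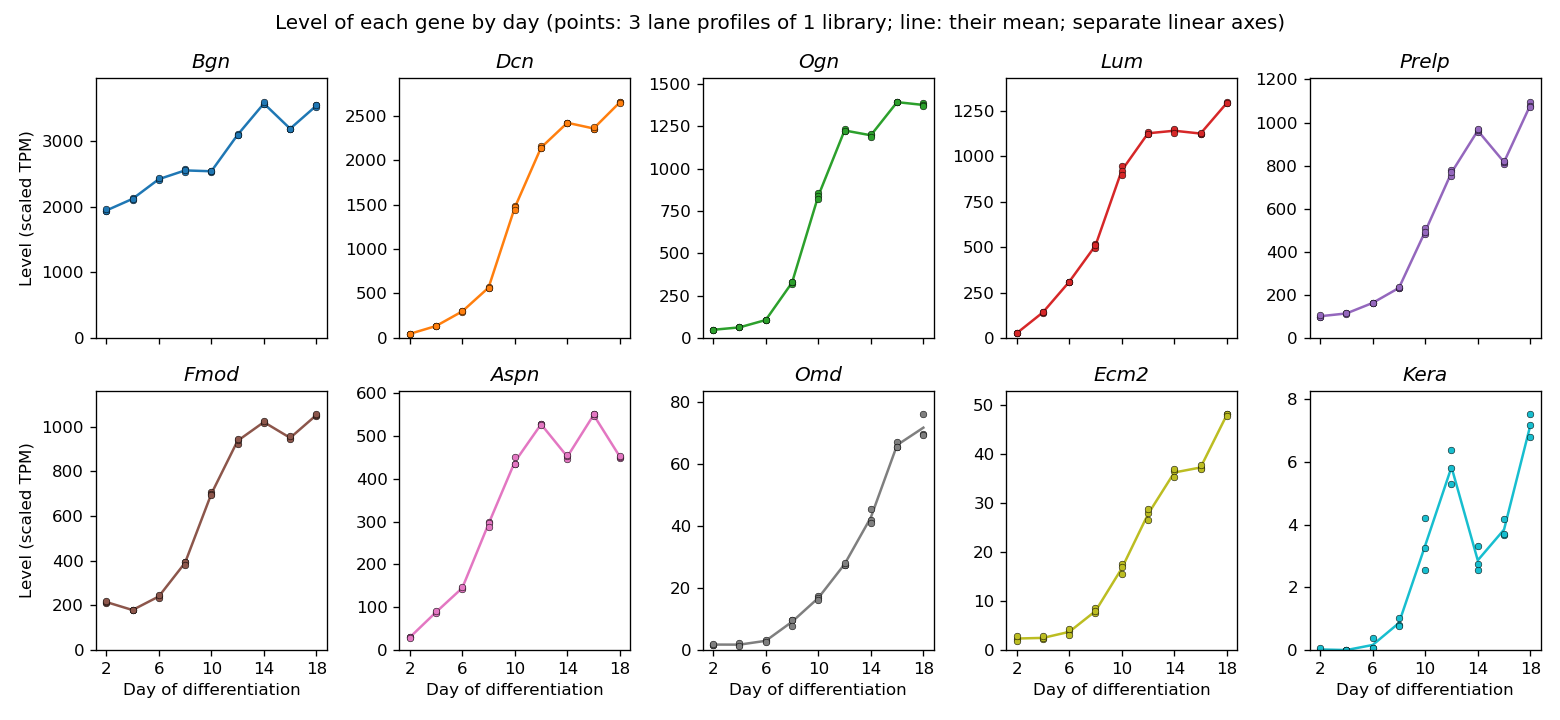
Level of each of the 10 genes (vertical axes, scaled TPM, a separate linear axis per gene) against day of differentiation (horizontal axes), with points for the 3 lane profiles of a day and a line through their mean. Bgn starts at 1946 TPM on day 2, while the other 9 genes start at 215 TPM (Fmod) or less. Those 9 genes climb by day 18, most of them chiefly between day 6 and day 12 and Omd to the end.

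Bgn (biglycan, located on chromosome X at 70728941 to 70741272 on the plus strand of NCBIM37) encodes a core protein that carries chondroitin or dermatan sulfate chains and whose loss in mice lowers bone mass. In order of day, from day 2 to day 18, its level was 1946, 2124, 2425, 2558, 2545, 3102, 3580, 3195 and 3548 TPM. It was thus already high at the start, and its highest day stood 1.84-fold above its lowest. By mean level it ranked 20 among all genes. Its rise along the line was small, at 0.80 on the log2 scale (SE 0.13, adjusted p = 0.000508, edgeR).

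Dcn (decorin), the closest relative of biglycan and a binder of collagen and TGF-beta, started from a far lower level. From the first day to the last it was at 45.5, 134, 299, 565, 1467, 2142, 2420, 2356 and 2652 TPM. The level climbed at every step except that from day 14 to day 16. Along the line Dcn rose by 5.81 on the log2 scale (SE 0.88, adjusted p = 0.000377, edgeR), and day 18 stood 58.2-fold above day 2. Bgn was 42.7 times as abundant as Dcn on day 2 and 1.34 times as abundant on day 18.

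Aspn (asporin) is related to decorin and biglycan in sequence. It carries a run of aspartate residues and no sugar chain, and it binds type I collagen. Over the 9 days in order its level was 29.4, 88.4, 145, 294, 439, 527, 451, 549 and 451 TPM. Aspn moved up and down after day 12, and its day 18 level was 0.856 of that on day 12. Along the line it rose by 3.50 on the log2 scale (SE 0.79, adjusted p = 0.00357, edgeR).

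Ecm2, a matrix protein with leucine-rich repeats, was among the 3 scarcest genes of the family. In order of day it stood at 2.35, 2.48, 3.70, 7.94, 16.6, 27.7, 36.2, 37.2 and 47.9 TPM. No step of Ecm2 went down. Its fitted log2 change was 4.91 (SE 0.44, adjusted p = 2.95e-05, edgeR).

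Lum (lumican), a keratan sulfate proteoglycan that limits the thickness of collagen fibrils, had its largest relative step at the start. From day 2 to day 18 the levels of Lum were 25.8, 141, 309, 509, 923, 1128, 1142, 1126 and 1295 TPM. Between day 2 and day 4 alone it rose 5.47-fold, and from day 12 to day 16 it was nearly level. The fitted log2 change was 4.40 (SE 0.96, adjusted p = 0.00314, edgeR).

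Fmod (fibromodulin) binds collagen at the same site as lumican and is needed for normal tendon. Its levels in order of day were 215, 179, 240, 391, 700, 937, 1021, 951 and 1053 TPM. Fmod was the only one of the 10 genes other than Bgn to stand above 200 TPM on day 2, and its climb began after day 4. Its fitted rise was 2.81 on the log2 scale (SE 0.39, adjusted p = 0.000232, edgeR).

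Prelp, whose amino-terminal end is rich in arginine and proline and binds heparan sulfate, gave levels in order of day of 101, 114, 163, 232, 495, 768, 962, 817 and 1081 TPM. More than 50% of its highest level was reached only on day 12. Its fitted log2 change was 3.69 (SE 0.35, adjusted p = 3.7e-05, edgeR). The estimated counts of Prelp were whole numbers in 21 of 27 profiles and those of the other 9 genes in all 27, so some reads of Prelp were shared out between features.

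Omd (osteomodulin, also called osteoadherin) is an acidic member first known from mineralized tissue, where it binds cells through integrin. Its 9 levels in order of day were 1.77, 1.75, 2.97, 9.11, 16.8, 27.7, 42.7, 66.1 and 71.7 TPM. Omd was the latest of the 10 genes. It passed 50% of its highest level on day 14, and its day 18 level was 2.59 times that of day 12. The fitted log2 change was 6.03 (SE 0.44, adjusted p = 1.18e-05, edgeR), with the smallest p of the 10 genes.

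Kera (keratocan), the keratan sulfate proteoglycan of the cornea, was the scarcest. Its summed counts in order of day were 1, 0, 8, 30, 85, 350, 134, 197 and 322. The 0 on day 4 allows up to 0.0709 CPM (counts scaled to a library total of 1000000), the level of 3 counts in that library, and its 95% Wilson upper limit is 0.0908 CPM. On day 12 it stood at 5.64 CPM (95% Wilson interval 5.08 to 6.27), on day 14 at 2.97 (2.51 to 3.51) and on day 18 at 7.24 (6.49 to 8.08), intervals that cover counting error only. The dip on day 14 was therefore larger than counting error, and with 1 library a day its spread between cultures is unknown. The fitted log2 change of 6.91 (SE 1.55, adjusted p = 0.00357, edgeR) rests on these low early counts, and it ran from 5.77 with the 27 profiles as separate samples to 12.9 with a spline in day. Its size is therefore uncertain, while its direction was the same in every alternative tried.

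Ogn (osteoglycin, also called mimecan) belongs to the class with epiphycan and opticin. Over the 9 days its levels were 48.1, 62.3, 106, 326, 838, 1225, 1196, 1392 and 1375 TPM. Most of the climb fell between day 6 and day 12, over which Ogn rose 11.6-fold. Ogn rose along the line by 5.60 on the log2 scale (SE 0.84, adjusted p = 0.000371, edgeR). Ogn and Omd lie side by side, yet the level of Ogn was 27.1 times that of Omd at day 2, 50.0 times at day 10 and 19.2 times at day 18.

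By mean level over the 9 days the order was Bgn at 2780 TPM, Dcn at 1342, Lum at 733, Ogn at 730, Fmod at 632, Prelp at 526, Aspn at 330, Omd at 26.7, Ecm2 at 20.2 and Kera at 2.67. Lum, Ogn, Fmod and Prelp overlapped widely in their range over the days, as did Omd and Ecm2, so neighbours in this order are not set apart by their means. Bgn did not overlap with any gene but Dcn.

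The make-up of the family RNA shifted as the other genes rose. Bgn supplied 80.6% of the summed TPM at day 2, 52.3% at day 8 and 30.6% at day 18. Dcn supplied 1.89% at day 2 and 22.9% at day 18. Over the same interval Lum went from 1.07% to 11.2% and Ogn from 1.99% to 11.9%. Fmod kept a share between 6.30% and 9.48% on every day.

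**Figure D2:**
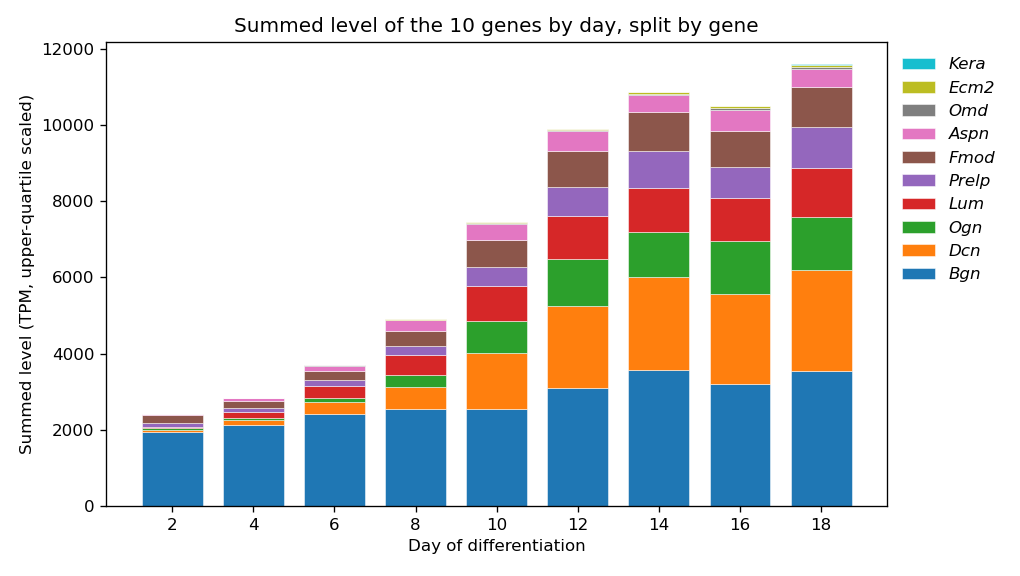
Summed level of the 10 genes (vertical axis, scaled TPM) on each day (horizontal axis), with bars divided by gene. The sum goes from 2415 to 11581 TPM, and the part supplied by Bgn goes from 80.6% to 30.6%.

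The genes differed in when they reached 50% of their own highest day. Bgn was past this mark on day 2 and Aspn on day 8. Dcn, Lum, Fmod and Ogn passed it on day 10, Prelp, Kera and Ecm2 on day 12, and Omd on day 14. On day 8 the level as a share of the highest day was 53.7% for Aspn, 39.3% for Lum, 21.3% for Dcn, 16.6% for Ecm2 and 12.7% for Omd. This order comes from 1 library a day and was not tested.

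**Figure D3:**
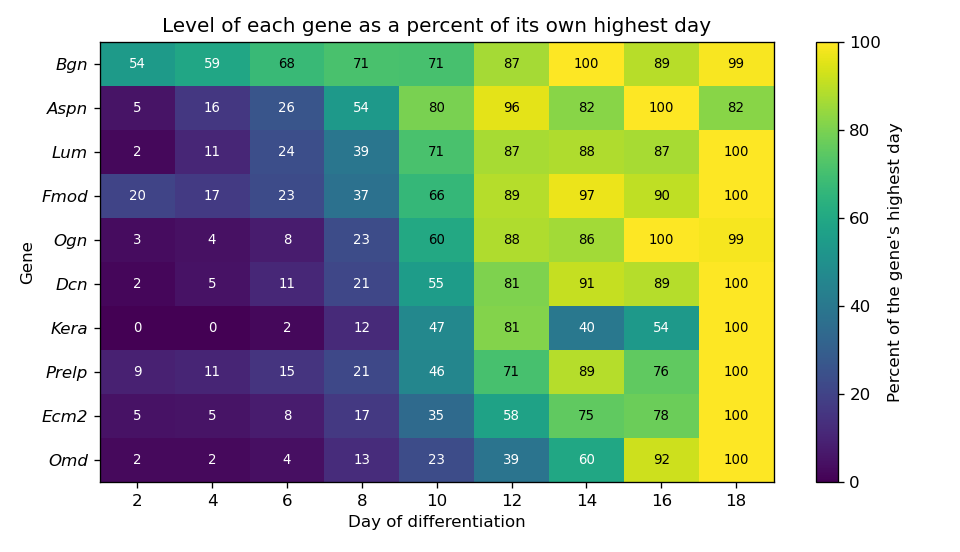
Level of each gene (rows) on each day (columns) as a percent of that gene's own highest day, with the percent printed in each cell and shown by colour. Bgn stands above 50% on every day, Aspn reaches 53.7% on day 8, and Omd is at 38.6% on day 12.

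Between the early and the middle days 9 of the 10 genes rose, against 17.3% of all genes tested. The median log2 difference of the 10 genes was 2.51, and that of all genes 0.06. Kera differed by 5.67 (SE 0.97), Ogn by 3.45 (SE 0.44), Dcn by 3.12 (SE 0.63) and Omd by 3.01 (SE 0.39). Bgn did not pass, at 0.32 on the log2 scale (SE 0.12, adjusted p = 0.0737, edgeR), though it passed without day 6 (0.39) and without day 8 (0.37). Lum passed at 2.43 (SE 0.67, adjusted p = 0.0238, edgeR) but not without day 4 (2.35), day 10 (2.32) or day 12 (2.23).

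Between the middle and the late days edgeR called 0 of the 10 genes and 0 of 15659, or 0% of genes in either direction. At an unadjusted p under 0.05 there were 2557 genes, 4 of them from the family: Bgn, Prelp, Ecm2 and Omd. All 10 differences were above 0, with a median of 0.62 on the log2 scale against -0.01 over all genes, but Aspn turned negative without day 8 (-0.021) and Kera without day 8 (-0.013) or day 18 (-0.027). The largest were those of Omd at 1.72 (SE 0.36, adjusted p = 0.199, edgeR) and Ecm2 at 1.19 (SE 0.35, adjusted p = 0.209, edgeR). DESeq2, which called 306 genes higher and 264 lower, called these 2 family genes, as did edgeR without day 12. The middle and late comparisons share the middle libraries.

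**Figure D4:**
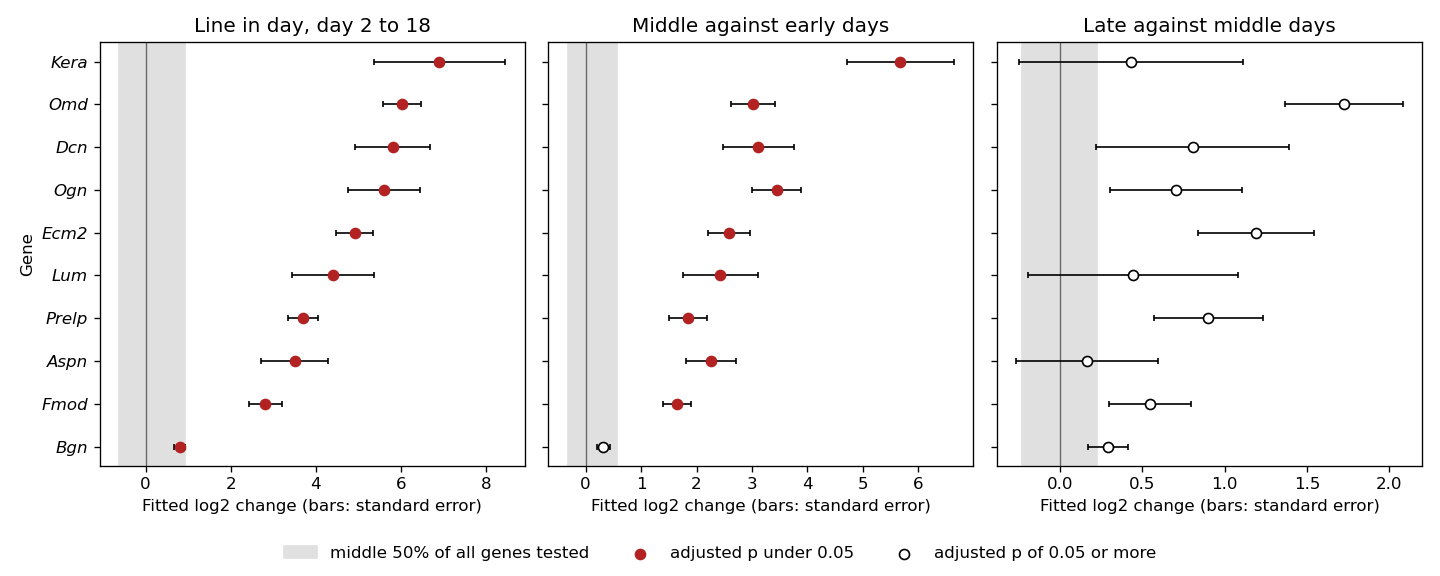
Fitted log2 change of each gene (points, with the standard error as a bar) along the line from day 2 to day 18, between early and middle days, and between middle and late days, with a separate horizontal scale per panel. Filled points passed an adjusted p under 0.05, which 10, 9 and 0 of the 10 genes did, and the grey band holds the middle 50% of all genes tested.

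The genes other than Bgn lie in 3 groups. On chromosome 13 of NCBIM37, Ecm2, Aspn, Omd and Ogn follow each other on the plus strand from 49600179 to 49719869. On chromosome 10, Dcn, Lum and Kera span 96942245 to 97076322 on the plus strand, and on chromosome 1 Prelp, on the minus strand, and Fmod, on the plus strand, span 135806881 to 135944854. Bgn stands alone on chromosome X.

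The other protein-coding genes within 200 kb of these groups were looked at after the levels of the 10 genes had been seen. Counting Epyc on chromosome 10 and Optc on chromosome 1, which belong to the family, 11 of 12 family genes rose. Of 28 other genes 16 were tested, and 2 of these rose and 11 fell, with a median log2 change of -1.02. Over all genes tested 28.3% rose and 26.1% fell. The 2 neighbours that rose were Chi3l1 on chromosome 1 (log2 change 7.26) and Pnck on chromosome X (2.66). On chromosome 10, 0 of the 3 other genes were tested. On chromosome 13 all 6 tested neighbours fell while the 4 family genes among them rose. The log2 change was -5.39 for Fgd3, -1.63 for Iars, an isoleucyl-tRNA synthetase, and -1.49 for Bicd2. It was -1.22 for Nol8, a nucleolar protein, -1.22 for Cenpp, a centromere protein, and -0.91 for Ippk, an inositol phosphate kinase. Cenpp runs along the minus strand across the whole group, from 49559396 to 49748124. Whether the library kit or the counting kept strand is not given in the sources used here. The estimated counts of Ecm2, Aspn, Omd and Ogn were whole numbers in all 27 profiles. They thus show no reads shared out between these 4 genes and Cenpp. Wrong placement of whole reads was not tested. The call of Cenpp (adjusted p = 0.0416, edgeR) was lost without day 6 (-1.11), day 8 (-1.14), day 12 (-1.18), day 14 (-1.08) or day 18 (-0.82).

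**Figure D5:**
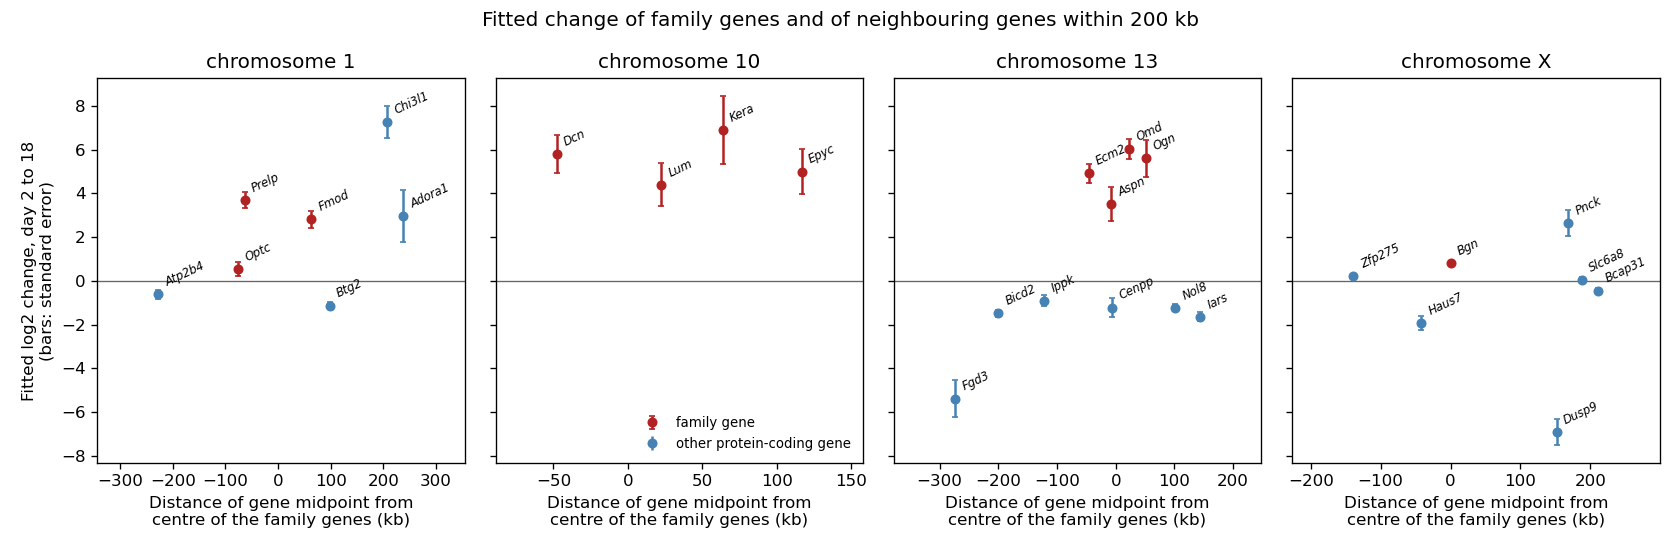
Fitted log2 change from day 2 to day 18 (vertical axis, bars are standard errors) of family genes and of other tested protein-coding genes within 200 kb, against the distance in kb of the gene's midpoint from the centre of the family genes (horizontal axis), for the 4 chromosomes. On chromosome 13 the 4 family genes lie above 0 and the 6 others below it.

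The sequence before the gene start is shown for 4 genes, because they stand for the different time courses: Bgn, high from day 2, Aspn, the first of the others to reach 50% of its highest day, Ogn, which rose mainly from day 6 to day 12, and Omd, the last. Each is the 250 bases before the start given by RefSeq, on build GRCm38.p6 and read along the gene's plus strand, at chrX:73483351-73483600 for Bgn, chr13:49544193-49544442 for Aspn, chr13:49607765-49608014 for Ogn and chr13:49582212-49582461 for Omd. Capitals mark matches on either strand to the 3 motifs searched: TATAAA (the sequence of the TATA box), TGTGGT (the core bound by RUNX factors) and CCAAT. Matches were taken at any place in the window, so a match is not by itself a working site.
Bgn: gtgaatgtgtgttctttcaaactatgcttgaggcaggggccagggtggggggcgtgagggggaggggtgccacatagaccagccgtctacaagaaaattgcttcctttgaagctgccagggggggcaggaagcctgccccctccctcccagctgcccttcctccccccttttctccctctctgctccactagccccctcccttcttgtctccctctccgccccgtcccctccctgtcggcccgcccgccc
Aspn: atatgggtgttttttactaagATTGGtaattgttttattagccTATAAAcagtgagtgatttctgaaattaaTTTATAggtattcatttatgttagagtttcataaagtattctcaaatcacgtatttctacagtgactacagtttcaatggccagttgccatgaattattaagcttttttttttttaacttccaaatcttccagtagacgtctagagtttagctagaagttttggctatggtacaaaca
Ogn: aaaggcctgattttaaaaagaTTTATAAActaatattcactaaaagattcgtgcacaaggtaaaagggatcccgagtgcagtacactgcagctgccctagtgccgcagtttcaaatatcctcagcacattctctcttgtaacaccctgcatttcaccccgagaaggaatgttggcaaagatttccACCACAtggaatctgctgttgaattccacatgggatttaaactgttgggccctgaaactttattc
Omd: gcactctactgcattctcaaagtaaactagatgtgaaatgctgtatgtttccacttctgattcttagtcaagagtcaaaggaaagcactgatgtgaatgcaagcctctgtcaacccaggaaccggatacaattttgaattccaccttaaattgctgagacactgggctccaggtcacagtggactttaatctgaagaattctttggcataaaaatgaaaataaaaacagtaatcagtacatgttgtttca

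Bgn had a GC content of 64.4% and 7 CpG dinucleotides in this window, whereas Aspn had 30% and 2, Omd 38.4% and 1, and Ogn 42.0% and 4. Over 32851 mouse promoters of the same length the median was 52.4% GC with 6 CpG. Of the 8 family genes with an entry, Bgn and Prelp (55.6%) lay above that GC median, and Fmod (51.2%), Kera (42.4%) and Ecm2 (40.0%) below it with the chromosome 13 genes shown. TATAAA occurred in Aspn, at -207 and -178 from the start, and in Ogn, where matches on both strands at -229 and -227 overlap, as it did in 12.4% of all promoters. TGTGGT occurred in Ogn at -65, in its reverse complement, and in 14.0% of all promoters. CCAAT occurred in Aspn, in Prelp and at 3 places in Kera, against 33.8% of all promoters. Bgn, Omd, Fmod and Ecm2 held none of the 3 motifs in this window, which says nothing about the factors themselves. Dcn and Lum have no entry.

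Of 8 further family genes, 5 rose and 2 fell (all genes tested: 28.3% and 26.1%). Podn (podocan), the most abundant of these, climbed from 6.88 to 108 TPM over the 9 days, a fitted log2 change of 3.86 (SE 0.57). Epyc (epiphycan), next to Kera, went from 1.11 to 98.8 TPM with a fitted change of 4.99 (SE 1.01). Chad (chondroadherin), which was listed at 0 on day 2, had the largest fitted rise and reached 11.9 TPM on day 18. Podnl1, a relative of podocan, had the largest fall, from 11.0 to 2.32 TPM (log2 change -2.31, SE 0.51). Optc (opticin), next to Prelp, stood at 3.30 TPM on day 2 and 6.67 on day 18 and did not pass.

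Genes for the synthesis of the sugar chains are given by list, against 28.3% rising and 26.1% falling over all genes tested. Of 6 genes for the linkage sugars that join a chain to its core, 2 rose and none fell, with a median log2 change of 0.21. Fam20b, a xylose kinase and the most abundant of them, was at 21.3 TPM on both day 2 and day 18. Xylt1, a xylosyltransferase that starts the chain, rose by 1.30 on the log2 scale (SE 0.41), from 1.18 to 1.99 TPM, and its call was lost without day 4 (1.04) or day 16 (1.07).

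Of 15 chondroitin and dermatan sulfate genes tested, from a list of 16, 7 rose and 1 fell (all genes tested: 28.3% and 26.1%). Their median log2 change was 0.45. Chsy1, a chondroitin synthase and the most abundant of them, was at 50.5 TPM on day 2 and 67.8 on day 18 (log2 change 0.53, SE 0.21, adjusted p = 0.0525, edgeR), and it passed in 7 of the 18 alternatives, among them DESeq2 (0.49), the spline (0.39) and the fits without day 10 (0.52) or day 18 (0.76). Chst3, a chondroitin 6-O-sulfotransferase, had the largest rise, 4.05 on the log2 scale (SE 0.65), but reached only 0.936 TPM. Chst11, a chondroitin 4-O-sulfotransferase, was the 1 that fell, from 11.4 to 7.46 TPM (log2 change -0.68, SE 0.15).

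Of 5 keratan sulfate genes tested, from a list of 7, 2 rose and 2 fell (all genes tested: 28.3% and 26.1%). Their median log2 change was 0.25. B4galt1, a galactosyltransferase and the most abundant, stood at 66.5 TPM on day 2 and 85.9 on day 18 and did not pass. B4galt4, another galactosyltransferase, rose from 6.17 to 14.9 TPM (log2 change 1.31, SE 0.30). Chst1, a keratan sulfotransferase, fell from 2.73 to 1.63 TPM (log2 change -0.84, SE 0.31). The call of Chst1 was lost without day 2 (-0.60), 4 (-0.83), 6 (-0.79), 10 (-0.84), 14 (-0.86) or 16 (-0.89).

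Of 6 genes for sulfate supply and tyrosine sulfation, 1 rose and 2 fell (all genes tested: 28.3% and 26.1%). The 1 that rose was Tpst1, a tyrosine sulfotransferase, from 19.7 to 60.6 TPM (log2 change 1.79, SE 0.22). Tpst2, the other tyrosine sulfotransferase of the list, fell from 24.2 to 18.5 TPM (log2 change -0.69, SE 0.23). Tyrosine sulfation is a known modification of fibromodulin, lumican and osteomodulin. Papss2, which makes the sulfate donor, fell from 54.3 to 31.1 TPM (log2 change -0.71, SE 0.15). Papss1 of the same list stood at 28.8 TPM on day 2 and 40.7 on day 18 and did not pass (log2 change 0.28, SE 0.14).

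Of 8 collagens and collagen-processing genes, 5 rose and 1 fell (all genes tested: 28.3% and 26.1%). Their median log2 change was 0.86. Col1a1, a chain of type I collagen, went from 1526 to 4263 TPM (log2 change 1.23, SE 0.23). Pcolce, which speeds the trimming of procollagen, went from 288 to 1516 TPM (log2 change 2.38, SE 0.26). Lox, the lysyl oxidase that crosslinks collagen, fell from 960 to 667 TPM (log2 change -0.62, SE 0.22), a call lost without day 2 (-0.38), 4 (-0.49), 12 (-0.61), 14 (-0.64) or 16 (-0.66).

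The labelled cell type was checked against 9 osteoblast markers, of which 6 rose and none fell. The share to set beside these and the other marker counts is 28.3% rising and 26.1% falling over all genes tested. Runx2, the factor that defines the lineage, was at 46.4 TPM on day 2 and 62.0 on day 18. Bglap (osteocalcin) went from 1.24 to 208 TPM and Ibsp (bone sialoprotein) from 0.581 to 78.4 TPM. Sp7 (osterix) stood at 32.3 TPM on day 2 and 10.6 on day 18 (log2 change -1.23) and Spp1 (osteopontin) at 402 and 532 TPM (log2 change -1.17), and neither passed. The summed level of the osteoblast markers, lowest on day 10, was 492 to 1065 TPM on the early days, 369 to 645 on the middle days and 480 to 1226 on the late days. Most of this sum on day 6 and day 10 was Spp1, at 1012 and 285 TPM. Markers of other cell types also changed over the days, some lists rising and others falling, and their courses were not compared with those of the 10 family genes. Of 7 monocyte and macrophage markers 6 rose and none fell, with a summed level of 24.1 to 61.7 TPM on the early days, 68.1 to 451 on the middle days and 522 to 2014 on the late days. Lyz2 made up most of this sum on day 2 (19.9 TPM) and day 18 (1855 TPM). All 5 adipocyte markers rose, from a sum of 3.21 to 7.44 TPM early through 6.51 to 103 in the middle to 188 to 407 late.

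Of 4 tendon and ligament markers 2 rose and 1 fell, and their sum, mostly Tnmd, was 168 to 206 TPM early, 345 to 843 in the middle and 769 to 822 late. All 4 smooth muscle and pericyte markers fell, from a sum of 2661 to 5414 TPM early through 1164 to 1883 in the middle to 885 to 1025 late. Most of this sum was Acta2, at 5155 TPM on day 2 and 868 on day 18. Of the 5 osteoclast markers, Calcr and Dcstamp were at 0 on every day, and of the 3 tested 2 rose. Of 5 chondrocyte markers 4 were tested, 2 rose and 1 fell, and Matn1 stayed under 1 TPM. Their sums, mostly Col2a1, were 72.3 to 112 TPM early and 55.8 to 70.0 late. Of 4 endothelial markers 3 were tested, 2 rose and 1 fell, with sums of at most 12.0 TPM on any day and Pecam1 under 1 TPM. The part of these cell types in the rise of the family genes was not tested.

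Over the 9 days the 10 genes gave 45 pairs, whose Pearson r on the log2 scale ran from 0.856 (Lum with Fmod) to 0.995 (Prelp with Ecm2), with a median of 0.946. These are descriptions in which both genes of a pair were measured in the same libraries and many genes rise over the days, and they carry no p. Omd and Ecm2 had an r of 0.994, and Lum and Aspn 0.991.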

How the data were processed

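RNA sequencing profiles of sorted mouse calvarial cells, 27 in all from 9 days, were used. Reads had been aligned by the authors with Bowtie 0.12.9 to the NCBIM37 transcriptome, and RSEM had assigned them to genes. From the deposited tables, the estimated count of each gene is RSEM's own and carries no scaling. The deposited TPM, made by the authors with the same program, correct for effective gene length and sum to 1000000, and the deposited FPKM scale fragments to gene length and to the aligned total. Gene symbols and positions came from the GENCODE annotation of NCBIM37, and promoter sequences from RefSeq on GRCm38.p6.

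TPM were brought to a common scale by dividing each profile by the upper quartile (percentile 75) of its values above 0 and restoring the average quartile of all 27. Estimated counts of the 3 profiles of a day were summed and rounded to whole numbers. The 9 libraries were fitted with edgeR 4.0.16 in R 4.3.3 (quasi-likelihood test with Benjamini-Hochberg adjustment, upper-quartile factors, and the filterByExpr filter at 10 counts), once with a line in day and once with the 3 periods as groups. In the period fit the early, middle and late days stand in for replicates of a period, so its p-values measure the spread between days of one culture series. In the line fit the spread is that of the 9 days around a straight line, which includes any curve in a gene's course. The natural spline gave a log2 change of 5.26 for Lum and 4.82 for Ogn, against 4.40 and 5.60 by the line. Changes along the line are the slope times the interval from day 2 to day 18. Tables and figures were made with Python 3.11.15. A single profile held between 7331125 and 20888956 counts (median 14505059). Intervals and floors cover counting error only.

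The 10 genes, the pathway lists and the marker lists were chosen with earlier results of these data known. From each pathway list the text names the gene with the highest mean level and those with the largest rise and fall past the threshold. Epyc, Optc, Tpst2 and Papss1 are named in addition. For each of the 10 genes the 3 genes with the highest Pearson r over 9 days were taken among genes with a mean of at least 10 TPM, on log2 CPM with 0.5 counts added. Deviations from the day means were not shared by profiles of one replicate number (mean correlation -0.00363, against 0.00179 for different numbers), so the numbers pair no samples. Alternatives were TMM factors, DESeq2 1.42.0, no filter, the 27 profiles each taken as a sample, with or without a replicate block, each replicate number or day left out, a natural spline with 3 degrees of freedom, and TPM or FPKM as deposited.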

Additional observations from a re-analysis of the deposited data

How the results depend on the processing

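The rise of all 10 family genes along the line was past the threshold in each of the 18 alternatives tried, with the largest adjusted p (edgeR) of 0.0166 for Aspn. The fitted log2 change ran from 5.77 to 12.9 for Kera, 4.87 to 6.76 for Dcn, 4.82 to 6.45 for Ogn, 3.22 to 5.30 for Lum and 2.55 to 4.35 for Aspn. Calls between periods depended on the setting, and the cause was not tested except as named. From early to middle days 2713 genes were higher and 2135 lower. With the 27 profiles as separate samples the counts were 5133 and 4426, and 5172 and 4389 with the replicate block, in fits that count lanes as samples. With fewer libraries they were 1717 and 1171 without day 2, 1458 and 1172 without day 4, 1332 and 810 without day 10, and 1266 and 907 without day 12. From middle to late days edgeR called 0 family genes and 0 genes in all. DESeq2 called 2 family genes, 306 genes higher and 264 lower. The 27 profiles gave 6, 2402 and 3228, and with the replicate block 6, 2371 and 3048. Without day 12 these counts were 2, 149 and 204. Leaving out 1 replicate number at a time kept the count of family genes at 10, 9 and 0 in the 3 comparisons. The middle to late log2 difference turned negative for Aspn without day 8 (-0.021) and for Kera without day 8 (-0.013) or day 18 (-0.027), and the change of Fam20b under the spline (-0.068), none of them past the threshold in either form. Bgn passed from early to middle days also with DESeq2 (0.29) and with the 27 profiles (0.33). The call of Cenpp was also lost without replicate 1 (-1.26) and that of Chst1 without replicate 3 (-0.73) or without the filter on low counts (-0.88). The mean level of Bgn was 1775 as FPKM. With 1 library a day, no value carries an error between cultures.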

Other observations

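The genes whose course over the 9 days was most like that of each family gene were picked among 7618 others (7619 for Kera) by Pearson r on the log2 scale. These are likenesses in a set of days where many genes rise, given with no p. For Dcn they were Eya4, C1s and Cxcl12, with r of 0.998 to 0.999. Cxcl12, a chemokine made by marrow stroma, had a mean level of 351 TPM, C1s, a complement protease, 59.0 TPM and Eya4 19.8 TPM. For Ogn they were Lmo4, Matn4 and Nov, and Nov, a matricellular protein, averaged 309 TPM. For Lum they were Msi2, Adam23 and Naalad2, and Naalad2 also came among the 3 for Aspn, after Gamt and before Tcf4.

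For Prelp the most alike were Scpep1, Svil and Cercam, and for Ecm2 they were Sepp1, a selenium carrier, Cercam and Aoc3. Fmod was most like Ldb2, Prlr (the prolactin receptor) and Robo2. Omd was most like Gdf10, a member of the BMP family with a mean of 36.0 TPM, with r = 0.996, followed by BC096441 and Cst3 (cystatin C). Bgn was most like Bsg, Hsbp1 and Erp29, with r of 0.987 to 0.989. Kera was most like Col8a2, Cfb and Fxyd6, with r of 0.988 to 0.989, and only 1 of these 3 was among its most alike when 2 counts were added in place of 0.5.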
